A study of Mus musculus with 6 samples.

Results

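The genes examined here are 9 components of type I interferon signalling: Ifnar1 and Ifnar2, the kinase genes Jak1 and Tyk2, Stat2, and the interferon regulatory factor genes Irf1, Irf3, Irf7 and Irf9. They were chosen by symbol from 54752 rows of a gene count table, and all 9 were in the table. The choice used no cutoff on their values but was made with earlier results of these data known. The cells were mouse embryonic fibroblasts (MEFs) described as p53 deleted, a background that both groups share. The control group (shNT, 3 libraries) received a negative control shRNA by lentivirus, with the genotype label WT. The other group (shARF, 3 libraries) received an shRNA against p19ARF, with the genotype label ARF knockdown. All titles also carry the tag neo. The titles call the replicates biological. The labels do not say whether they were separate infections or cultures, or whether the cells were 1 clone, so the p-values rest on the variation among these libraries, some of which may be technical. No library is labelled as treated with interferon, and the levels are taken as those of shRNA-carrying cells in serum-containing medium.

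Type I interferons act through a receptor of 2 chains, IFNAR1 and IFNAR2, which carry the tyrosine kinases TYK2 and JAK1. The kinases phosphorylate STAT proteins, STAT2 among them, which join IRF9 in the complex ISGF3, and ISGF3 switches on interferon-stimulated genes. IRF3 and IRF7 work a step earlier, where sensing of foreign nucleic acid leads to production of interferon, and IRF1 is both a target and an activator in this network. Fibroblasts carry the receptor and respond to interferon without being immune cells.

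Each library held from 40261944 to 47023082 counts. Cdkn2a, the gene of p19ARF and p16INK4a, fell from 224 ± 6.91 CPM in shNT to 102 ± 5.57 CPM in shARF (SD, n = 3 each), where CPM are counts scaled to a common library size by the TMM method. The libraries also differed in sex-linked genes. Xist fell from 387 ± 26.5 to 45.7 ± 7.49 CPM and Ddx3y on the Y chromosome rose from 24.4 ± 1.596 to 85.3 ± 4.19 CPM. This difference in cells runs along with the groups, so the design cannot tell it apart from the knockdown. Its part in the results below was not tested. All 12 fibroblast markers listed were detected, at a summed 19563 to 21027 CPM in shNT and 23619 to 23829 CPM in shARF, with 6 higher and 4 lower. Among them Col1a1 was at 7123 and 9360 CPM, and Pdgfra fell from 502 to 91.4 CPM. Of 14 immune cell markers, 7 had no count in any library, Ptprc had 3 counts in all of shNT and none in shARF, and the list summed to 11.9 to 13.5 CPM in shNT and 5.26 to 6.32 CPM in shARF. Most of that sum came from Csf1r, Cd68 and Cd14, and its part in the results was not tested.

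The start regions of 4 of the genes hold letters that match core motifs of factors in this pathway. Each window below covers 250 bases before the RefSeq start site and 20 bases after it (GRCm38.p6, from RefSeq), 5′ to 3′ on the strand of the gene, with the matched letters in capitals. The receptor pair is shown because Ifnar1 fell and Ifnar2 did not pass the test. Stat2 is shown because it had the largest change among the genes that passed, and Irf1 because it is itself an interferon-induced gene. Ifnar1 is at chr16:91484965-91485234, Ifnar2 at chr16:91372533-91372802, Stat2 at chr10:128270248-128270517 and Irf1 at chr11:53769764-53770033, all on the plus strand.
Ifnar1: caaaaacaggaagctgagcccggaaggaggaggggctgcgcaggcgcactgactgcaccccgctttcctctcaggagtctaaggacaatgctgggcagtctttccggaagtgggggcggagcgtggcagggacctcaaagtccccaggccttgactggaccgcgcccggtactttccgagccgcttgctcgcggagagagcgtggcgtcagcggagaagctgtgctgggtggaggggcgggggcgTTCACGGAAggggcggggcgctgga
Ifnar2: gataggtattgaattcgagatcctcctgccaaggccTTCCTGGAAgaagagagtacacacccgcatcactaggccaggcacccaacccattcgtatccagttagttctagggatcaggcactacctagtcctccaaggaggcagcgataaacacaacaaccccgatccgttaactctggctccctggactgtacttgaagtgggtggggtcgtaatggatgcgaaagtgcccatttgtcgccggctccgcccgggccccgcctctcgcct
Stat2: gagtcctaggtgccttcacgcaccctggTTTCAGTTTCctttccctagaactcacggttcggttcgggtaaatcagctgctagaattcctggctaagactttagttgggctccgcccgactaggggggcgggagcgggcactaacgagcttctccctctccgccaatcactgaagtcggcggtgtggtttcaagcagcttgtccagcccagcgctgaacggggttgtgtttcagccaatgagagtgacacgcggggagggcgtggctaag
Irf1: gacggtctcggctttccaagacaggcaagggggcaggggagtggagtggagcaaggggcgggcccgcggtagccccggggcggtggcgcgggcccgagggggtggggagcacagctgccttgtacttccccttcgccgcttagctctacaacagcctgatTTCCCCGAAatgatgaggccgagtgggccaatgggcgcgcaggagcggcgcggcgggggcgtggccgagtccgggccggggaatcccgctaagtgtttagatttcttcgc
The capitals in Stat2, read on the opposite strand, are 2 copies of GAAA separated by 2 bases, the core of the interferon-stimulated response element bound by ISGF3 and IRFs. They run from position -222 to -213 of the start site. The capitals in Ifnar1 (-5 to 4), Ifnar2 (-214 to -206) and Irf1 (-90 to -82) match TTCNNNGAA, the core of the gamma-activated site bound by STAT dimers. TTCNNNGAA reads the same on both strands, so each of these is counted once, and no match of one motif overlapped a match of the other. All 9 genes had at least 1 window in the RefSeq table, 11 windows in all, searched over their full 300 bases on both strands. Over all 32851 windows of that length, 3.44% held such a pair of GAAA copies and 8.3% held TTCNNNGAA. A match describes letters in a window and not a bound site. No match in the window of the other members says only that these letters are not there.

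Across the 9 genes the comparison of shARF with shNT in p53-deleted cells gave small differences. It holds ARF knockdown together with the difference in sex-linked genes given above. Stat2, Ifnar1 and Jak1 fell, Irf7 was close to absent in both groups, and no member was called higher. By edgeR's quasi-likelihood test with Benjamini-Hochberg adjustment, 3 of 9 members were called lower, against 27.7% of the 17128 genes tested, and 0 higher, against 28.8% of genes. In either direction 33.3% of members were called, beside 56.4% of all genes, a difference that was not tested. With library sizes alone as the scaling, which moved the median of all genes to -0.098, the split over all genes was 4023 higher and 5874 lower in place of 4930 and 4737. At an unadjusted p below 0.05 no member was higher by edgeR, DESeq2 or limma-voom. The median log2 fold change of the members was -0.095, beside -0.0080 over all genes tested, and the median size of change was 0.13 beside 0.34. Of the members, 7 of 9 had a fitted change of less than 1.2-fold, as did 41.4% of all genes. The shNT and shARF ranges of CPM were apart for 4 of 9 members, all lower in shARF, against 64.6% of all genes in either direction and 32% for lower. In bulk libraries such as these, fewer cells of a type and less RNA per cell cannot be told apart.

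**Figure D1:**
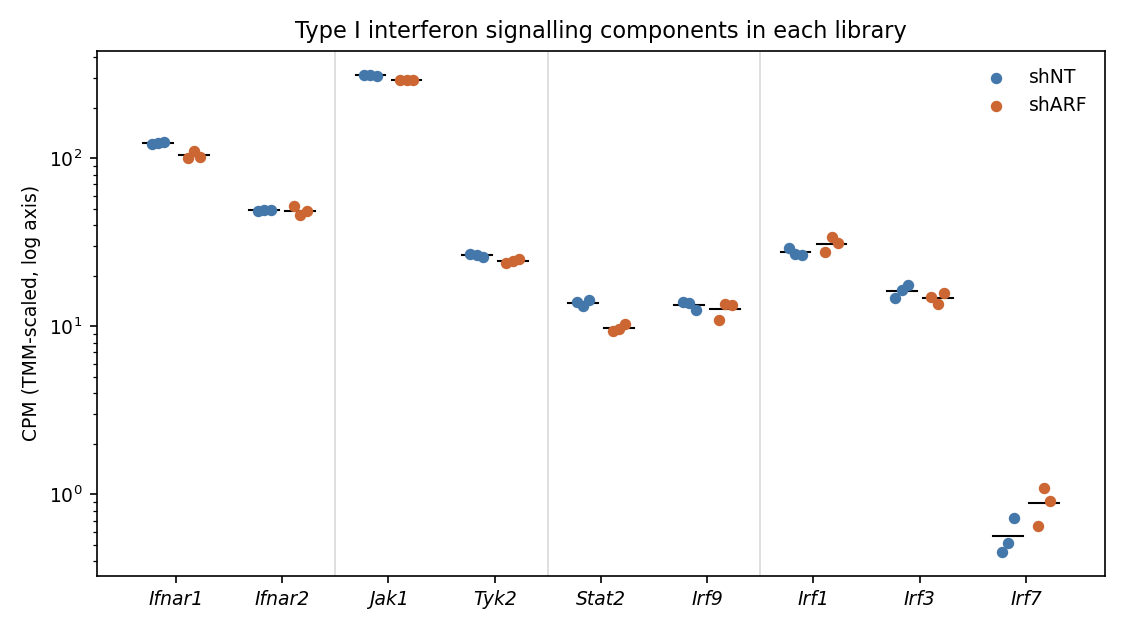
CPM of the 9 members (log axis, scaled by TMM) in each of the 3 shNT and 3 shARF libraries, with the group mean as a line. Jak1 is highest, at 292 to 315 CPM, Irf7 lowest, at 0.456 to 1.09 CPM, and Stat2 is the member whose groups lie farthest apart among those above 1 CPM.

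Levels between genes can be compared only per length, here as CPM per kilobase of annotated exon. In shNT the order was Jak1 (43.1 ± 0.505 CPM per kb), Ifnar1 (20.7 ± 0.206), Ifnar2 (14.8 ± 0.210), Irf1 (6.93 ± 0.372), Irf3 (4.70 ± 0.421), Tyk2 (3.86 ± 0.0829), Irf9 (2.49 ± 0.137), Stat2 (2.34 ± 0.105) and Irf7 (0.1499 ± 0.0381). The ranges over the 3 libraries of neighbours in this order were apart, except for Irf9 and Stat2. The order was the same in shARF, and there Irf9 (2.34 ± 0.287 CPM per kb) and Stat2 (1.66 ± 0.0833) were apart as well. The receptor chains and Jak1 stood above the STAT and IRF members in both groups. The lengths join the exons of all isoforms, so a gene with long rare isoforms is understated.

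Of the receptor chains, Ifnar1 was called lower and Ifnar2 did not pass the test. Ifnar1 (ENSMUSG00000022967.13, GRCm38 chromosome 16, 91485238 to 91507441), the chain bound by TYK2, was at 122, 123 and 124 CPM in shNT and at 101, 110 and 101 CPM in shARF. Every shARF library lay below every shNT library. It fell to 84.6% of the shNT level (95% interval 79.2 to 90.4%), a log2 fold change of -0.24 (SE 0.040, adjusted p = 0.00200). Its neighbourhood also lay low, with a median of -0.10 over 70 genes in the same 10 Mb window. With fold changes centred on that median, Ifnar1 still passed, at -0.14 (adjusted p = 0.0242).

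Ifnar2 (ENSMUSG00000022971.18, chromosome 16, 91372783 to 91405589), the chain bound by JAK1, was at 48.3, 49.5 and 49.5 CPM in shNT and at 52.0, 46.2 and 48.4 CPM in shARF. The groups overlapped, with the shNT libraries inside the range of the shARF libraries. Its log2 fold change came to -0.0065 (SE 0.051, adjusted p = 0.924), and the interval of shARF as a percent of shNT ran from 91.5 to 108%. The table counts the whole gene, so the soluble and membrane forms of IFNAR2 could not be separated. The read-through gene Gm21970, which joins Ifnar2 and Il10rb and shares 9.46% of the exon length of Ifnar2, held 0 to 1.21 CPM.

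These chains lie in a cluster of cytokine receptor genes, of which Ifnar1 alone was called. Apart from the ratio of the chains given below, differences among these genes were not tested. In order along the chromosome, Ifnar2 and Il10rb (-0.0070, adjusted p = 0.935), a subunit shared by interleukin 10 and type III interferon receptors, did not pass, Ifnar1 fell, and Ifngr2 (-0.091, adjusted p = 0.0689), a chain of the interferon gamma receptor, did not pass. Of the 8 genes listed around the cluster, 1 was higher and 3 were lower (5 lower with library sizes alone). The CPM ranges of Ifngr2 were apart, with shARF lower. Ifngr2 was called lower in 5 of the alternatives and was at 0.011 when centred on its window. Gart, an enzyme gene of purine synthesis, rose from 132 ± 3.08 to 184 ± 3.65 CPM. Dnajc28 fell from 3.39 ± 0.478 to 1.41 ± 0.154 CPM and Tmem50b fell as well (-0.22). Son, an RNA splicing factor gene, was at 524 and 488 CPM and did not pass.

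Of the kinases, Jak1 was slightly lower in shARF and Tyk2 did not pass the test. Jak1 (ENSMUSG00000028530.14, chromosome 4, 101152367 to 101265282), a kinase shared by many cytokine receptors, was at 315, 312 and 308 CPM in shNT and at 292, 292 and 292 CPM in shARF. The groups were apart, and the SD of the shARF libraries was 0.231 CPM. It fell to 93.7% (90.8 to 96.6%), a log2 fold change of -0.095 (SE 0.019, adjusted p = 0.00451). The genes around it went the other way, with a median of 0.13 over 70 genes of the window, and centred on that median Jak1 was at -0.22 (adjusted p = 7.93e-05). With library sizes alone as the scaling it was at -0.18.

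Tyk2 (ENSMUSG00000032175.11, chromosome 9, 21104068 to 21131243), the partner kinase on IFNAR1, was at 27.1, 26.5 and 25.9 CPM in shNT and at 23.8, 24.6 and 25.3 CPM in shARF. Its groups did not overlap, but the change of -0.11 (SE 0.044) did not pass (adjusted p = 0.0691), with an interval of 86.0 to 99.6% of the shNT level. It was called lower under 5 alternatives, among them centring on its window (-0.27, adjusted p = 0.00188) and library sizes alone (-0.20, adjusted p = 0.00855), with adjusted p from 0.00188 to 0.204 over all 17. An antisense gene shares 8.07% of its exon length. Without a stated strand setting of the counting, reads of the pair cannot be told apart.

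Of the ISGF3 genes among the members, Stat2 fell and Irf9 did not pass. Stat2 (ENSMUSG00000040033.16, chromosome 10, 128270559 to 128292849), the STAT that is particular to interferon signalling and carries the transactivation domain of the complex, was at 13.99, 13.2 and 14.4 CPM in shNT and at 9.44, 9.65 and 10.4 CPM in shARF. All shARF libraries lay below all shNT libraries, and the gap between the groups exceeded the spread within either. Stat2 fell to 70.9% (63.7 to 78.9%), a log2 fold change of -0.50 (SE 0.065, adjusted p = 6.23e-04). The 109 genes of its window had a median of -0.24, and centred on it Stat2 was at -0.26 (adjusted p = 0.0129).

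Irf9 (ENSMUSG00000002325.15, chromosome 14, 55603571 to 55610030), the DNA-binding subunit, was at 13.96, 13.7 and 12.6 CPM in shNT and at 10.8, 13.6 and 13.4 CPM in shARF. The groups overlapped, and shARF replicate 1 was the lowest of the 6. The change was -0.089 (SE 0.10, adjusted p = 0.483), with an interval of 79.7 to 111%. Without shARF replicate 1 the value was 0.012.

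By the distance between profiles over the 6 libraries, the genes most like Stat2 among 10389 named genes of at least 5 CPM were Pik3c3, a lipid kinase of autophagy (root mean square distance 0.021 on the log2 scale), Ftx, a noncoding RNA of the X inactivation centre (0.0285), and Washc1, a subunit of an endosomal actin regulator (0.0292). Their log2 fold changes were -0.50, -0.47 and -0.45. The call of Ftx was lost when centred on its window (-0.21, adjusted p = 0.0512).

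**Figure D2:**
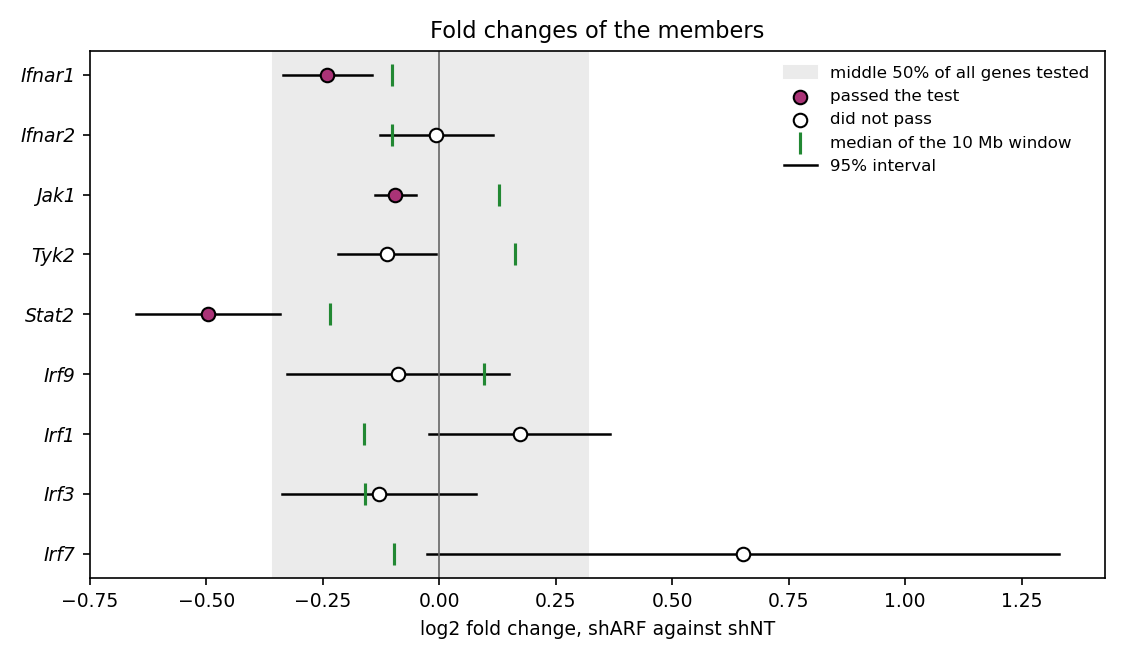
Log2 fold change of shARF against shNT for the members, with 95% intervals, filled where the test was passed; ticks give the median of genes in the same 10 Mb window and the band the middle 50% of all genes tested (-0.36 to 0.32). Stat2 lies outside the band, at -0.50, as does Irf7, at 0.65 with an interval from -0.03 to 1.33, and the other 7 members lie inside it.

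The IRF genes outside ISGF3 did not pass the test. Irf1 (ENSMUSG00000018899.16, chromosome 11, 53770014 to 53778374), an interferon-induced activator, was at 29.2, 27.0 and 26.5 CPM in shNT and at 27.9, 34.0 and 31.3 CPM in shARF. Only shARF replicate 1 lay within the range of shNT, and the other two were above it. The change was 0.17 (SE 0.081, adjusted p = 0.115), with an interval of 98.5 to 129%. Without shARF replicate 1 Irf1 was called higher (0.25, adjusted p = 0.0268), as it was when centred on its window (0.33, adjusted p = 0.0119). Over its 17 alternatives the adjusted p ran from 0.0119 to 0.437.

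Irf3 (ENSMUSG00000003184.15, chromosome 7, 44997648 to 45002848), the constitutively present factor that is activated by TBK1, was at 14.7, 16.4 and 17.5 CPM in shNT and at 14.996, 13.6 and 15.7 CPM in shARF. The groups overlapped. The change was -0.13 (SE 0.087, adjusted p = 0.247), with an interval of 79.1 to 106%, and it was 0.030 when centred on its window. Bcl2l12, which is transcribed the other way from the same start region and shares 2.56% of the exon length of Irf3, fell (-0.35).

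Irf7 (ENSMUSG00000025498.15, chromosome 7, 141262706 to 141266481), the factor that amplifies interferon production and is itself strongly induced by interferon, was barely detected. It had 21, 25 and 30 counts in shNT and 29, 48 and 41 counts in shARF, or 0.456, 0.513 and 0.729 CPM against 0.647, 1.09 and 0.917 CPM. The groups overlapped. The log2 fold change of 0.65 (SE 0.28, adjusted p = 0.0924) has an interval from 98.1 to 251% of the shNT level, so at this depth neither equal levels nor a rise of over 2-fold could be told apart. Without shARF replicate 1 the call passed (0.84, adjusted p = 0.0486). Over its 15 alternatives the adjusted p ran from 0.0486 to 0.258. Phrf1, at 59.5 and 63.4 CPM, shares 45 bases of exon with Irf7 on the opposite strand, and how many of these few counts come from it was not tested.

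Ratios of partner genes, taken within each library, do not depend on how libraries are scaled. The ratio of Irf9 to Stat2 was 0.998, 1.04 and 0.874 in shNT and 1.15, 1.41 and 1.29 in shARF, so every shARF library lay above shNT. Its log2 rose by 0.40 between group means. The ratio of Ifnar1 to Ifnar2 was 2.52, 2.49 and 2.51 in shNT and 1.94, 2.39 and 2.09 in shARF, with all shARF libraries below, a log2 difference of -0.23. The ratio of Irf7 to Irf3 differed by 0.77, with groups apart but few counts behind Irf7, and by 0.50 with a prior of 0.5 CPM added to both genes. The ratio of Jak1 to Tyk2 was 11.6 to 11.9 in shNT and 11.6 to 12.3 in shARF, with groups that overlapped (0.017, exact two-sided permutation p = 0.6, adjusted p = 0.6). The other 3 ratios each had p = 0.1 by that exact permutation test, the smallest that 3 against 3 libraries allow, and 0.133 after adjustment over the 4 pairs.

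**Figure D3:**
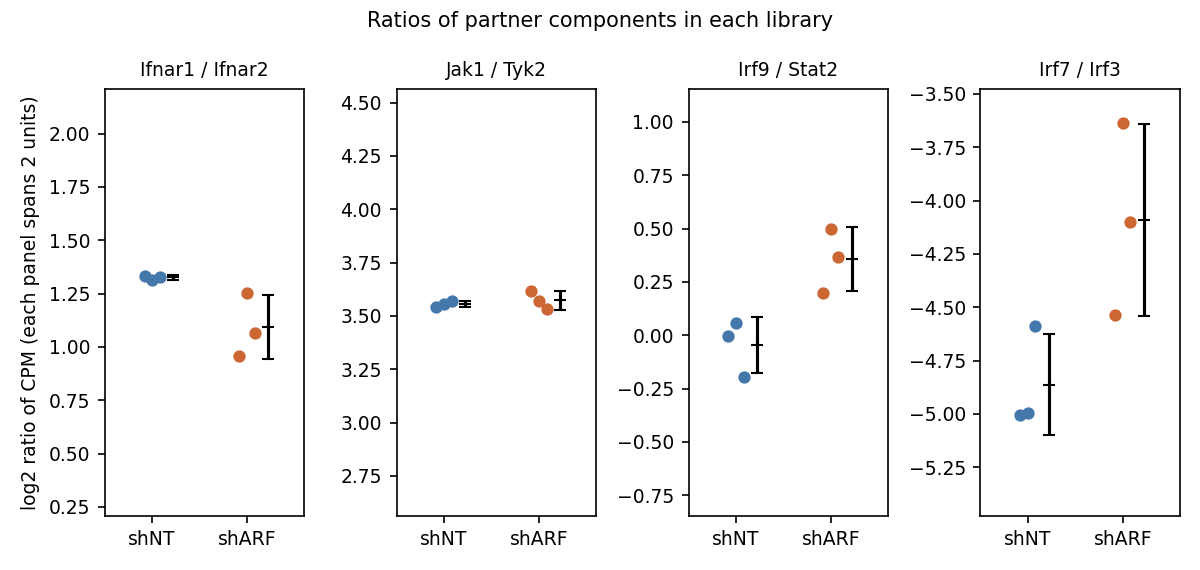
Log2 ratio of CPM of 4 pairs of partner genes in each library, with the mean and SD of each group, on axes of equal span. Irf9 to Stat2 and Irf7 to Irf3 are higher in all 3 shARF libraries, Ifnar1 to Ifnar2 is lower in all 3, and Jak1 to Tyk2 overlaps.

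The size of change varied among lists of genes that work with the members. Its median was 0.69 for the other STAT and JAK genes and 0.58 for ISGF3 targets, beside 0.34 over all genes tested. For nucleic acid sensing genes it was 0.31, for other IRF genes 0.28, for negative regulators 0.27 and for type II and III receptors 0.091. These differences were not tested. The other STAT and JAK genes, which serve many cytokine receptors, had 5 of 7 tested members lower. The median over the 7 was -0.69 on the log2 scale. Stat3, the main STAT of the interleukin 6 family, fell from 260 ± 7.21 to 163 ± 3.01 CPM (-0.67, adjusted p = 3.08e-06). Jak3, the kinase of the common gamma chain, fell from 12.9 ± 0.733 to 4.60 ± 0.0874 CPM (-1.49). Stat5b, a STAT of growth hormone and interleukin 2 signalling, fell from 62.1 ± 0.960 to 38.6 ± 0.636 CPM (-0.69). Jak2 (-0.74) and Stat5a (-1.26), named after their values were seen, fell as well. Stat5b, Stat5a and Stat3 lie within 100780731 to 100939540 of chromosome 11, where Stat3 and Stat5a share 72 bases of exon on opposite strands. Stat4 had no count in any library.

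No interferon ligand was detected at a level that could be tested. Of 21 ligand genes, 18 had no count in any of the 6 libraries, among them Ifnb1 and Ifng. The other 3 were Ifnz, with 34 counts over shNT and 23 over shARF, Ifne with 2 counts and Ifna16 with 1. A count of 0 over a group allows up to 3 counts, which is 0.0221 CPM in shNT and 0.0225 CPM in shARF, and covers counting error only. Among receptors of other interferons, Ifngr1, the ligand-binding chain for interferon gamma, fell from 30.6 ± 5.48 to 12.7 ± 1.17 CPM (-1.26, adjusted p = 3.07e-04). Ifnlr1, of the type III receptor, was too low to test. Of the other IRF genes Irf2, a partial antagonist of IRF1, fell (-0.26, adjusted p = 0.00371). That call was lost when centred on its window (-0.085, adjusted p = 0.189, the highest over its alternatives, of which the lowest was 7.30e-04). Irf5 was at 3.34 ± 1.19 and 4.10 ± 0.922 CPM and did not pass, and Irf4 and Irf8, which are lineage-restricted, were too low to test.

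Nucleic acid sensing genes, which feed into IRF3 and IRF7, had 7 of 20 tested members higher and 4 lower (median 0.13). Ifih1, which encodes the RNA sensor MDA5, rose from 7.14 ± 0.504 to 14.8 ± 0.737 CPM (1.06), and the adaptor Traf3 from 28.6 ± 0.156 to 45.3 ± 2.05 CPM (0.66). Tmem173, which encodes STING, fell from 55.4 ± 1.43 to 31.8 ± 0.259 CPM (-0.80). Cgas, the DNA sensor that signals to STING, was named after its values were seen and rose from 10.7 ± 1.69 to 25.7 ± 3.503 CPM (1.25). A list of negative regulators, Irf2bp1, Irf2bp2, Tax1bp1 and Trim27 among them, had 5 of 18 higher and 6 lower (median -0.041). With library sizes alone 10 were lower. Ptpn11, a tyrosine phosphatase, rose from 258 ± 4.84 to 362 ± 2.20 CPM (0.48), while the cytokine suppressors Socs1 and Socs2 fell (-0.82 and -0.87), from 24.2 ± 2.57 to 13.7 ± 0.335 CPM and from 11.2 ± 1.22 to 6.10 ± 0.290 CPM.

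Targets of ISGF3 were called higher more often than lower, while no member of the signalling chain was called higher. ISGF3 target genes had 16 of 31 tested members higher and 6 lower, with a median of 0.45. Ifi44 rose from 0.218 ± 0.0421 to 3.26 ± 0.797 CPM (3.87, adjusted p = 2.80e-05), Oasl1 from 0.132 ± 0.0404 to 1.56 ± 0.134 CPM (3.53), and Trim25, a ubiquitin ligase for RIG-I, fell from 67.9 ± 2.37 to 43.4 ± 1.64 CPM (-0.65). Among the 17 with at least 5 CPM in 3 libraries 8 were higher. The summed level of the 35 genes was 589 to 612 CPM in shNT and 562 to 595 CPM in shARF. Sp100, at 0.584 ± 0.157 CPM in shARF, was without a count in the controls, which makes it at least 26.5-fold higher (taking 3 counts over the shNT group), and with Sp100 at that bound the median was the same. These counts stand beside a background of 28.8% higher and 27.7% lower, and the difference between the lists and the members was not tested.

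**Figure D4:**
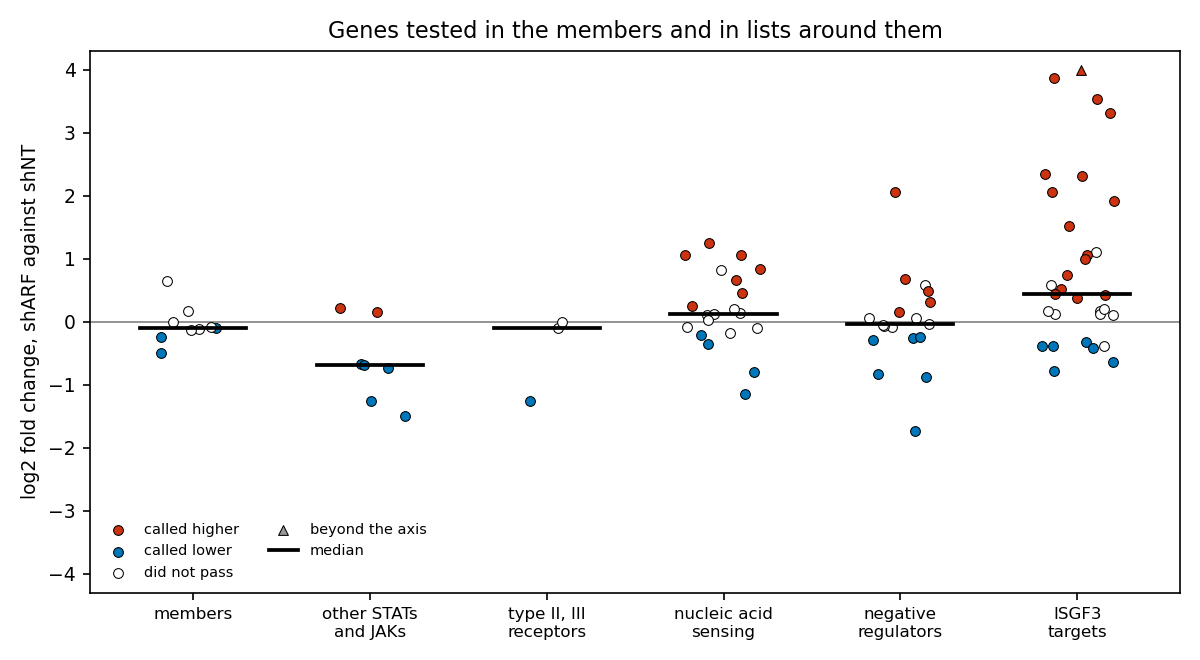
Log2 fold change of each gene tested, for the 9 members and 5 lists around them, coloured by call, with the median of each list as a bar and the triangle for Sp100, listed at 0 in shNT. The members lie between -0.50 and 0.65, the other STATs and JAKs have a median of -0.69, and the ISGF3 targets one of 0.45.

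Of 15 tested genes that lie beside the IRF and STAT members, 4 were higher and 5 lower (median -0.11), with 8 lower by library sizes alone. Cd151, a tetraspanin gene beside Irf7, rose from 51.3 ± 2.94 to 132 ± 27.6 CPM, and Pdlim4, beside Irf1, rose (0.65). Timeless, a replication fork gene near Stat2, fell from 61.7 ± 1.02 to 46.2 ± 1.43 CPM (-0.42). Rnf31, which lies upstream of Irf9 on the same strand and shares 2.28% of the exon length of Irf9, rose (0.27).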

How the data were processed

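RNA-seq of 6 libraries of mouse embryonic fibroblasts was used, 3 shNT and 3 shARF, grouped and numbered by their titles. The authors deposited whole-number counts per gene in 1 table. Per the submitters' processing notes, which assign no roles, the tools were StringTie 1.3.2, DESeq2 1.34.0, HISAT2 2.1.0, Trim Galore 0.4.1, Picard 2.13.2 and SAMtools 0.1.19. GRCm38 is the build named there. A strand-marking kit with ribosomal RNA depletion was used, per the labels' protocols. Not given in the sources used here: the counter, annotation release and strand setting. A further 6 columns belong to no sample here and were not used. The shARF columns carry another index number than the titles and were matched on group and replicate.

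Symbols, positions and exon lengths came from GENCODE M21 (GRCm38), which matched 54723 of 54752 IDs with versions ignored. The other rows held 0.00291% of counts. The test was edgeR 4.0.16 in R 4.3.3 (quasi-likelihood, TMM, filterByExpr with minimum count 10 and minimum total 15, group as the sole term), two-sided, adjusted by Benjamini-Hochberg across the 17128 genes tested, with calls at 0.05. All 9 members passed the filter. CPM use TMM-scaled library sizes over the tested genes, and fold changes a prior count of 0.125. The steps were tested on simulated data. Libraries of a group differed beyond counting noise, so all 6 entered as deposited, which does not show that they were separate cultures.

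The members and lists were chosen with earlier results of these data known. Named genes were the members, Cdkn2a, the genes of the Ifnar cluster, the 3 with the smallest p of each list, and the 3 profiles nearest to the called member with the smallest p in each direction. Other genes in the text were picked after their values were seen. Results for some genes and 1 gene list are not reported here. Partner ratios used an exact permutation test. Alternatives were DESeq2 1.42.0, limma-voom (limma 3.58.1), 3 other normalizations, 3 other filters, a threshold of 0.01, a replicate block, centring on 10 Mb windows with at least 15 genes, and each library left out in turn. For the ratios, a prior of 0.5 CPM was tried.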

Additional observations from a re-analysis of the deposited data

How the results depend on the processing

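Stat2, Ifnar1 and Jak1 were called lower in all 17 alternatives run for each. The number of members called lower was 3 or 4 throughout, the 4th being Tyk2. The number called higher was 1 when centred on 10 Mb windows (Irf1) and ranged from 0 to 2 over the fits that leave out 1 library, the 2 (Irf1 and Irf7) without shARF replicate 1. Irf7 was not tested with a filter of at least 1 or 5 CPM in 3 libraries.

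Changes of sign were seen for members that did not pass. Ifnar2 was at 0.096 when centred on windows, 0.0013 without shNT replicate 2, 0.035 without shARF replicate 2 and 0.0032 without shARF replicate 3 (range over libraries left out -0.050 to 0.035). Irf3 was at 0.030 when centred, and Irf9 at 0.012 without shARF replicate 1 (range -0.15 to 0.012). Of neighbouring genes, Ifngr2 was at 0.011 and Il10rb at 0.096 when centred, and Il10rb was at 0.0097 without shNT replicate 3, 0.046 without shARF replicate 1 and 0.0026 without shARF replicate 2 (range -0.063 to 0.046). The log2 ratio of Jak1 to Tyk2 differed by -0.0048 without shARF replicate 1 (range -0.0048 to 0.037). The cause of these changes was not tested.

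Of 113 tested genes in the pathway lists outside the members, 42 were higher and 33 lower. With at least 5 CPM in 3 libraries, which tests 79 of them, 26 were higher and 30 lower. With library sizes alone the lists split into 35 higher and 45 lower.

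Replicate numbers did not pair the libraries. Same-numbered libraries had correlations of deviations of -0.31, -0.081 and -0.065, and no library correlated best with its own number. With a replicate block 4604 genes were higher and 4309 lower, with 3 members lower and 0 higher, and 38 and 32 in the pathway lists.

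With 3 libraries a group, changes such as those of Tyk2 and Irf1 lie near the limit of the test, and Irf7 rests on under 50 counts per library.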
